A study of Homo sapiens with 12 samples.

Results

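The BCL2 family genes examined here are BCL2, BCL2L1, MCL1, BAX, BAK1, BBC3, PMAIP1, BCL2L11, BMF and BIK, taken by gene symbol from a table of 57773 genes. Each symbol matched 1 gene, and all 10 genes were among the 22831 that were expressed enough to be tested. They were measured by RNA sequencing in PANC-1, an established human line from a pancreatic carcinoma, kept below passage 30, per the labels. Cells were treated for 24 h with vehicle (DMSO), with chaetocin at 30 nM, with MLN8237 at 90 nM, or with the combination of chaetocin at 30 nM and MLN8237 at 90 nM, with 3 libraries in each of the 4 groups. The treatment tag of the combination libraries reads MLN3237, which was read as MLN8237 because their treatment protocol gives that name. Chaetocin is a fungal product known to inhibit the histone methyltransferase SUV39H1 and thioredoxin reductase. MLN8237, or alisertib, inhibits the mitotic kinase Aurora A. All libraries come from 1 cell line, and the labels do not say whether the libraries of a group were separate cultures, and each p-value then reflects only how these libraries varied, which may be technical.

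BCL2 family proteins decide whether the outer mitochondrial membrane is opened, the step that releases cytochrome c and starts the caspases. BAX and BAK1 are the effectors that form the pore, and the pro-survival proteins encoded by BCL2, BCL2L1 (BCL-xL) and MCL1 bind and restrain them. The BH3-only proteins encoded by BBC3 (PUMA), PMAIP1 (NOXA), BCL2L11 (BIM), BMF and BIK share a short BH3 helix through which they occupy the pro-survival proteins or engage the effectors. NOXA binds mainly MCL1. Pancreatic carcinoma cells are known for high BCL-xL and MCL1. The values below are transcript levels summed over a gene, so splice forms with opposite functions, as known for BCL2L1 and MCL1, were not separated, and protein was not measured.

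Summed gene counts ran from 49439795 to 63747510 per library. Levels of 1 gene between libraries are given as CPM, the read count relative to library size, scaled by the TMM method. Levels between genes are given as the deposited RPKM, which is scaled to gene length and was also used for BAK1 between groups. The 3 treated libraries numbered 3 stood apart. On the second principal component of log2 CPM they lay at -32.2 (chaetocin), -82.7 (MLN8237) and -28.1 (combination), and the other 9 libraries at 3.31 to 34.8. Set against the other libraries of their group, their short genes (under 1500 bases) were high relative to long genes (over 5000 bases), by 0.13 to 0.20 log2 units, against at most 0.07 in the others. Without these 3 libraries the same 6 family genes were called with chaetocin and with the combination against vehicle, and BAX was added against MLN8237. In the third MLN8237 library, 5.65% of counts came from genes with symbols of ribosomal proteins, against 2.91% to 3.90% in the other libraries. All 6 epithelial and ductal markers were detected, with a summed level of 4042 to 4644 CPM in vehicle, 2250 to 2420 with chaetocin, 4348 to 5128 with MLN8237 and 1847 to 2178 with the combination, and 5 of them fell with chaetocin and with the combination, where 11.9% and 18.3% of all genes fell. Of 14 markers of immune, endothelial, fibroblast, acinar and endocrine cells found in the table, CD68, COL1A1 and VWF reached 1 CPM in some library, INS was at 0 in every library, and the others stayed under 1 CPM. The endothelial marker VWF and the leukocyte marker PTPRC had no reads in vehicle and rose to 1.41 ± 0.196 and 0.380 ± 0.0896 CPM with chaetocin and to 3.04 ± 1.61 and 0.667 ± 0.252 with the combination (SD, n = 3, edgeR adjusted p between 4.58e-05 and 0.000774), while the fibroblast marker COL1A1 fell from 70.6 ± 8.69 to 39.3 ± 7.65 CPM with the combination (adjusted p = 0.000412). The summed level of these 14 was 223 to 258 CPM in vehicle, 227 to 285 with chaetocin, 225 to 253 with MLN8237 and 213 to 265 with the combination. Most of this sum came from CD68, at 153 to 229 CPM over all libraries, and COL1A1, at 31.2 to 78.8 CPM. The sum therefore says little about the other markers. The part of these marker shifts in the changes below was not tested. In such bulk samples, fewer cells of a type and less RNA per cell cannot be told apart.

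Among the 10 genes in vehicle, the highest levels per unit of gene length were those of 2 pro-survival genes. BCL2L1 stood highest at 67.4 ± 1.38 RPKM (SD, n = 3), followed by MCL1 at 43.5 ± 0.179, BAX at 17.9 ± 0.753 and BAK1 at 13.9 ± 0.851 RPKM. Among the BH3-only genes, BCL2L11 stood at 3.30 ± 0.278 and PMAIP1 at 2.97 ± 0.636 RPKM, and the vehicle libraries of these neighbours overlapped. BBC3 followed at 0.873 ± 0.0173 and BMF at 0.453 ± 0.0674 RPKM. BIK, at 0.120 ± 0.115, and BCL2, at 0.0457 ± 0.0213 RPKM, came last and overlapped each other. All other neighbours in this order were separated by every vehicle library. BCL2L1 and MCL1 together made up 99.94% to 99.97% of the summed RPKM of BCL2L1, MCL1 and BCL2 in the vehicle libraries. Other pro-survival genes, such as BCL2L2, are not in this sum.

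**Figure D1:**
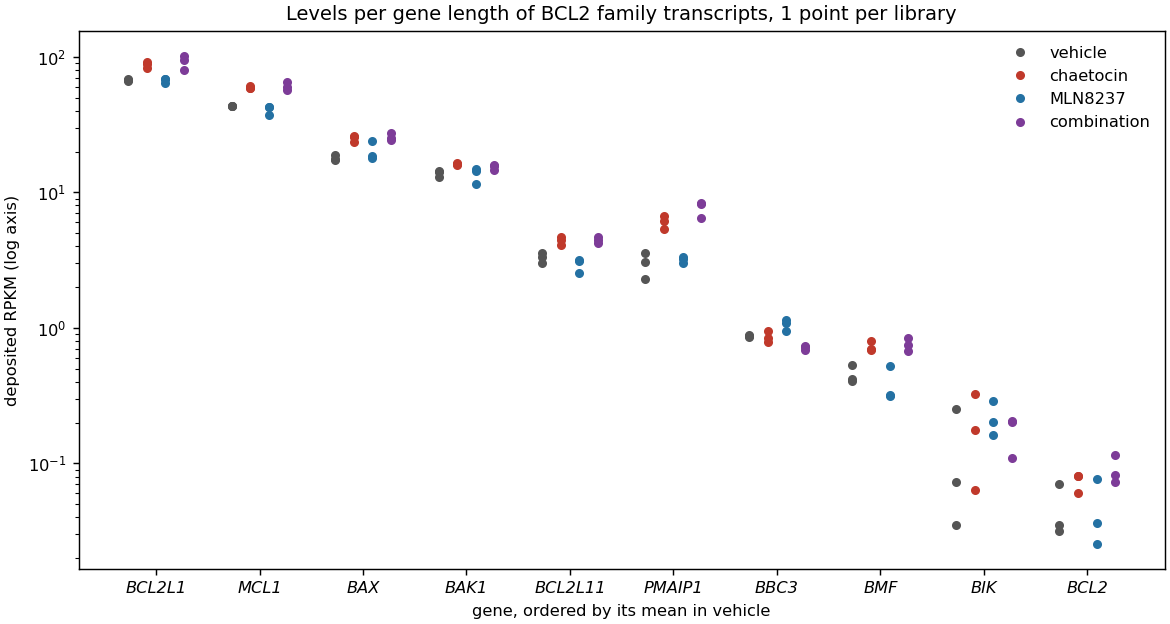
Deposited RPKM (log axis) of the 10 genes, ordered by their vehicle mean, with 1 point per library and a colour per group. BCL2L1 and MCL1 lie at the top in every group, BIK and BCL2 at the bottom, and PMAIP1 moves above BCL2L11 in the libraries that received chaetocin.

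The order was the same in the other groups except at 2 places. PMAIP1 stood above BCL2L11 with chaetocin, at 6.05 ± 0.706 against 4.39 ± 0.286 RPKM, and with the combination, at 7.69 ± 1.03 against 4.46 ± 0.218 RPKM, with no overlap between libraries in either group. With MLN8237 their libraries overlapped, at 3.18 ± 0.168 and 2.94 ± 0.338 RPKM. BMF and BBC3 overlapped with chaetocin, at 0.725 ± 0.0595 and 0.857 ± 0.0787 RPKM, and with the combination, at 0.757 ± 0.0865 and 0.717 ± 0.0275 RPKM.

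The comparison of chaetocin with vehicle asks what this compound alone did to the family. Transcripts rose on both sides of the survival balance: of the 10 genes 6 rose and 0 fell, namely the pro-survival genes BCL2L1 and MCL1, the effector gene BAX and the BH3-only genes PMAIP1, BCL2L11 and BMF. Of all 22831 genes 24.5% were called in this comparison, 12.6% higher and 11.9% lower (edgeR quasi-likelihood test, Benjamini-Hochberg adjusted p under 0.05). The median log2 fold change over the 10 genes was 0.41, against 0.01 over all genes tested. Groups did not overlap for 7 of the 10 genes, and for 48% of all genes tested. The called rises ran from 1.25-fold for BCL2L1 to 1.96-fold for PMAIP1.

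**Figure D2:**
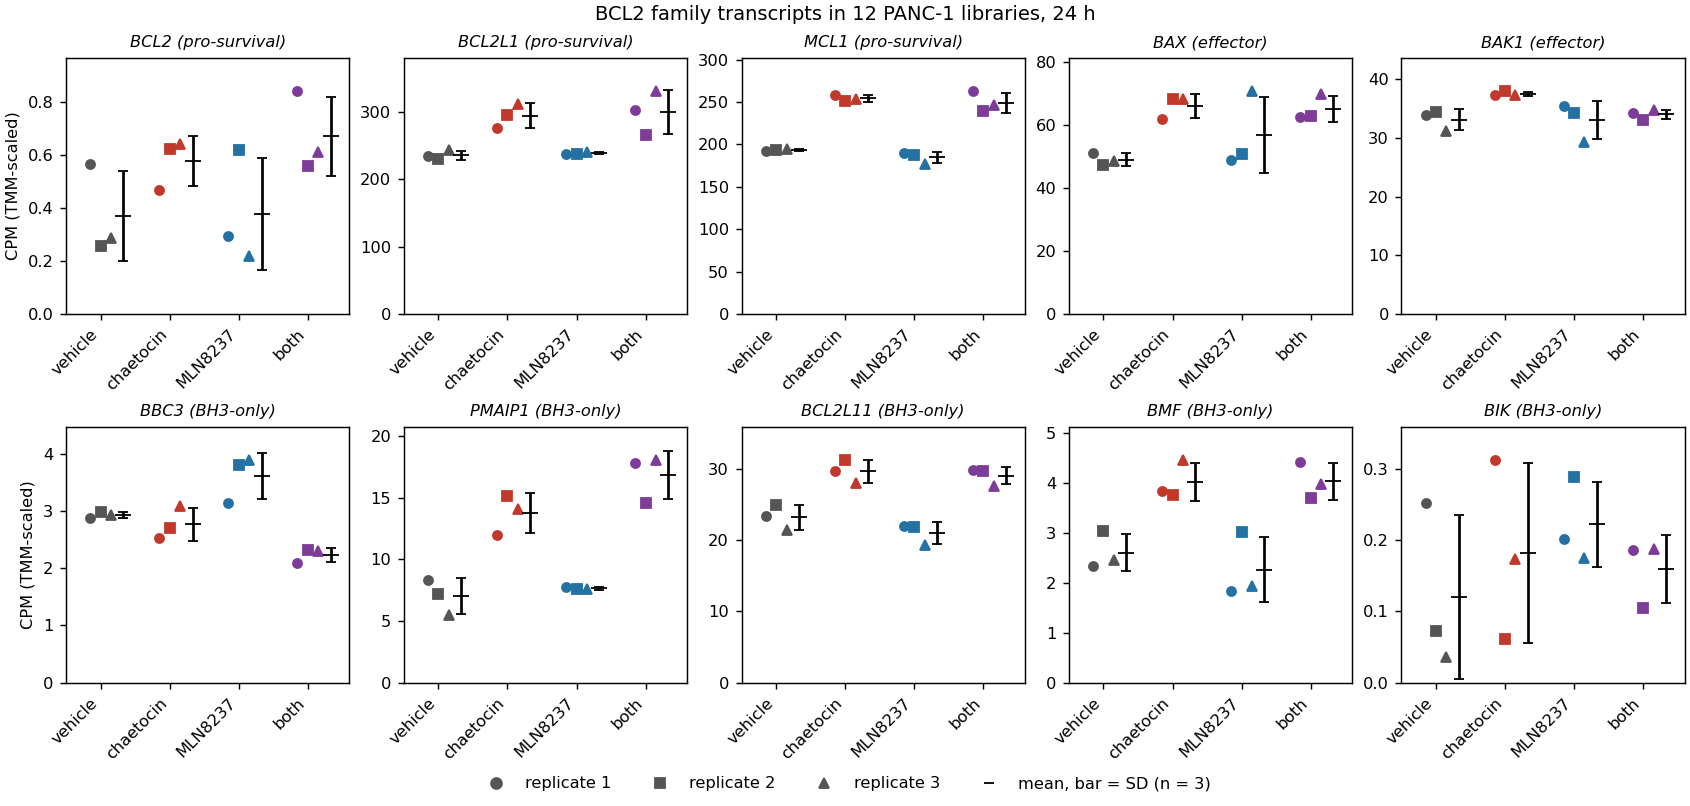
TMM-scaled CPM (linear axes from 0) of each gene in the 12 libraries, with the replicate number as marker shape and the mean with SD (n = 3) in black beside the points. PMAIP1 and MCL1 lie higher in all 6 libraries with chaetocin, BBC3 is lowest in the 3 combination libraries, and BCL2 and BIK vary widely at low levels.

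Of the pro-survival genes, MCL1 (ENSG00000143384, hg19 chromosome 1, 150547032 to 150552066), whose short-lived protein holds BAK1 and BIM in check, gave the tightest values. Its vehicle libraries held 192, 193 and 195 CPM and its chaetocin libraries 259, 251 and 254 CPM. The groups lay far apart, and MCL1 was higher by 0.39 ± 0.0737 log2 units (SE, edgeR adjusted p = 0.00199). BCL2L1 (ENSG00000171552, hg19 chromosome 20, 30252255 to 30311792), which encodes BCL-xL, held 235, 229 and 243 CPM in vehicle and 275, 296 and 312 CPM with chaetocin. All chaetocin libraries exceeded all vehicle libraries, for a rise of 0.32 ± 0.0906 log2 units (edgeR adjusted p = 0.0202). Its locus holds 2 small overlapping genes with 81 and 16 reads in all, against 180129 for BCL2L1. BCL2 (ENSG00000171791, hg19 chromosome 18, 60790579 to 60987361) overlaps 3 genes that held at most 23 reads in all against its 340, and rested on 14 to 27 reads per vehicle library and 27 to 41 per chaetocin library. Its CPM values of 0.566, 0.255 and 0.286 in vehicle overlapped those of 0.469, 0.625 and 0.641 with chaetocin (log2 fold change 0.66, 95% interval -0.22 to 1.54, edgeR adjusted p = 0.271).

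The effector genes differed from each other in call, though the difference between them was not tested. BAX (ENSG00000087088, hg19 chromosome 19, 49458072 to 49465055) held 51.1, 47.1 and 48.5 CPM in vehicle and 61.7, 68.3 and 68.1 CPM with chaetocin. Its groups did not overlap, and it rose by 0.43 ± 0.124 on the log2 scale (edgeR adjusted p = 0.0220). BAK1 (ENSG00000030110, hg19 chromosome 6, 33540329 to 33548019) held 33.9, 34.4 and 31.1 CPM in vehicle and 37.3, 37.9 and 37.3 CPM with chaetocin. The chaetocin libraries were the higher here too, but the test did not call it (log2 fold change 0.18, 95% interval -0.01 to 0.37, edgeR adjusted p = 0.161).

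The BH3-only genes are described with the bases just upstream of their starts. These genes differed in call, but differences between them and any link to these bases were not tested. Sequences of the 250 bases before the annotated start were taken from RefSeq (GRCh38.p14, a newer build than the hg19 positions given for the genes), where 8 of the 10 genes were matched, MCL1 and BIK being the others. Capitals mark matches, on either strand, to any of 7 motifs: the GC box GGGCGG, the CCAAT box, the TATA box written TATAAA, the antioxidant response element core TGACNNNGC, the AP-1 site TGANTCA, the letters TGACGT from the cyclic AMP response element, and the heat shock element core GAANNTTC. Matches to the antioxidant and cyclic AMP motifs can overlap. PMAIP1 lies at chr18:59899746-59899995, plus strand, BCL2L11 at chr2:111120664-111120913, plus strand, BMF at chr15:40106967-40107216, minus strand, and BBC3 at chr19:47232668-47232917, minus strand.
PMAIP1: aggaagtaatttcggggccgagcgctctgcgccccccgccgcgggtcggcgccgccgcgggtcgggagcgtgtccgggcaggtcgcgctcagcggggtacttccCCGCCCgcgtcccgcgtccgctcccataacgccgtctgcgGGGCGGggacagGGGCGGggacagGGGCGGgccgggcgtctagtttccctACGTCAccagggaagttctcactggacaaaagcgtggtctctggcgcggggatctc
BCL2L11: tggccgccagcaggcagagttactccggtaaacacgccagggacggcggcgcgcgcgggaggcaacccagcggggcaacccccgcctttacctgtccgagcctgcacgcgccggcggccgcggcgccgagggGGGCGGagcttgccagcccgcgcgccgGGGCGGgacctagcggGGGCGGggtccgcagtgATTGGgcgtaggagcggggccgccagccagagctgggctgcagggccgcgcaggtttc
BMF: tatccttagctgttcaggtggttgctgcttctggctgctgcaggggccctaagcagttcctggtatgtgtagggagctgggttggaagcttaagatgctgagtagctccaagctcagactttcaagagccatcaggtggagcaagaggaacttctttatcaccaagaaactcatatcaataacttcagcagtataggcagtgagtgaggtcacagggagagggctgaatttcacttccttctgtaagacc
BBC3: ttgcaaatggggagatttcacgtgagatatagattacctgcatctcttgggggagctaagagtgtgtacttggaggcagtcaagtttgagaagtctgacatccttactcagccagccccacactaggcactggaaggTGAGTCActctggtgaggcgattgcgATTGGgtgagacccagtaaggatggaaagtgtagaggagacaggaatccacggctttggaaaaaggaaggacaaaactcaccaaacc

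No motif occurred in all 4 windows. PMAIP1, with 72.8% G and C, held 4 GC boxes and 1 match to TGACGT that begins 56 bases before the start, and BCL2L11, with 76.8%, held 3 GC boxes and 1 CCAAT match. BMF, with 48.8% G and C, matched none of the 7 motifs, and BBC3, with 49.2%, held 1 CCAAT and 1 AP-1 match. Among 27305 promoter windows of the same length, 41.3% held the GC box, 32.7% CCAAT, 6.84% the AP-1 site and 7.16% the cyclic AMP motif. The TATA box was in 11.4%, the antioxidant motif in 11% and the heat shock motif in 5.94%. In the windows of the 8 matched genes, the antioxidant motif occurred in BAX, the heat shock motif in BAK1 and the TATA box in none. These are matches of letters and not measured binding sites, and the windows follow RefSeq starts that PANC-1 cells may not use.

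PMAIP1 (ENSG00000141682, hg19 chromosome 18, 57567180 to 57571538), which encodes the MCL1 antagonist NOXA, had the largest called change of the family with chaetocin. It held 8.34, 7.21 and 5.46 CPM in vehicle and 11.98, 15.1 and 14.1 CPM with chaetocin. Every chaetocin library exceeded every vehicle library, and PMAIP1 was higher by 0.97 ± 0.152 log2 units (edgeR adjusted p = 0.000663). BMF (ENSG00000104081, hg19 chromosome 15, 40380091 to 40401093), whose product is known to be released from the cytoskeleton under stress, held 2.33, 3.03 and 2.45 CPM in vehicle and 3.84, 3.75 and 4.45 CPM with chaetocin. It rose by 0.62 ± 0.196 on the log2 scale (edgeR adjusted p = 0.0342), with no overlap between groups. BMF overlaps RP11-521C20.3, which held 349 reads over all libraries against 2200 for BMF, so reads of the pair may have been divided between them.

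BCL2L11 (ENSG00000153094, hg19 chromosome 2, 111876955 to 111926024), which encodes the activator BIM, held 23.4, 24.9 and 21.3 CPM in vehicle and 29.6, 31.2 and 28.0 CPM with chaetocin. All chaetocin libraries were the higher, by 0.35 ± 0.0925 log2 units on average (edgeR adjusted p = 0.0141). BBC3 (ENSG00000105327, hg19 chromosome 19, 47724081 to 47736023), the gene of the p53 target PUMA, held 2.87, 2.97 and 2.93 CPM in vehicle and 2.52, 2.70 and 3.08 CPM with chaetocin. The groups overlapped and no change was called (log2 fold change -0.08, 95% interval -0.40 to 0.24, edgeR adjusted p = 0.745). BBC3 overlaps MIR3191, with 106 reads against 1897. BIK (ENSG00000100290, hg19 chromosome 22, 43506754 to 43525718) rested on 2 to 12 reads per vehicle library and 4 to 18 per chaetocin library, and a change was not detectable at this depth (95% interval -0.87 to 2.13 on the log2 scale, edgeR adjusted p = 0.564).

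The calls for MCL1 and PMAIP1 held in all 14 alternative analyses of chaetocin against vehicle, with adjusted p up to 0.0140 and 0.00497. The other 4 calls depended on single libraries, and the number of genes called was 4 without vehicle replicate 1 or 2, 3 without vehicle replicate 3 or chaetocin replicate 3, and 2 without chaetocin replicate 2. BCL2L1 was not called when vehicle replicate 1, vehicle replicate 2, chaetocin replicate 2 or chaetocin replicate 3 was left out (adjusted p = 0.0662, 0.0851, 0.0681 and 0.0897) and with no expression filter (0.0541), over a range of 0.00181 to 0.0897. BAX was not called when vehicle replicate 2, vehicle replicate 3, chaetocin replicate 2 or chaetocin replicate 3 was left out (0.0824, 0.0672, 0.0763 and 0.0695), over a range of 0.000502 to 0.0824. BCL2L11 missed it without vehicle replicate 3 or chaetocin replicate 2 (0.0744 and 0.0731), over a range of 0.000898 to 0.0744. BMF missed it without vehicle replicate 1 or 3 or any chaetocin replicate (0.125, 0.110, 0.0642, 0.0677 and 0.124), over a range of 0.00810 to 0.125. The direction of these 6 genes did not change in any of these analyses.

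**Figure D3:**
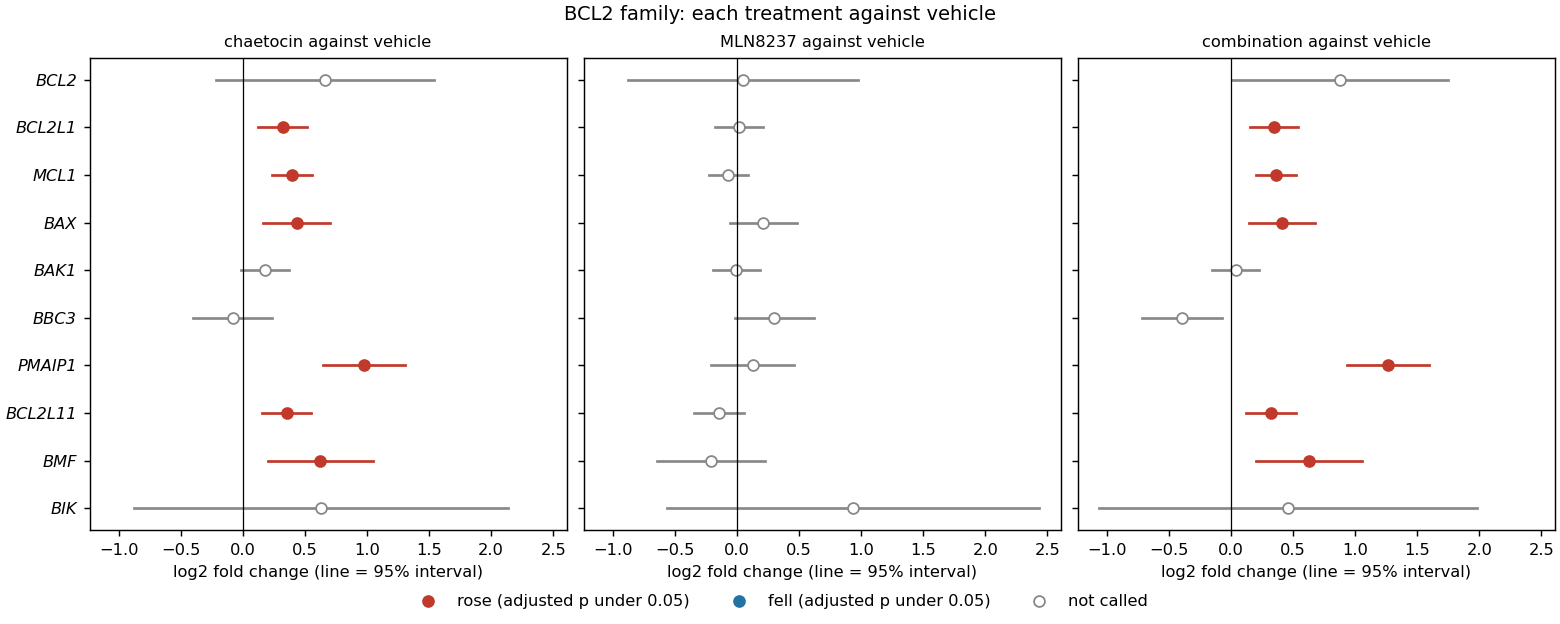
Log2 fold change of each gene against vehicle (horizontal axis) with its 95% interval, for chaetocin, MLN8237 and the combination, filled where the adjusted p was under 0.05. With chaetocin and with the combination 6 genes lie to the right of 0 and are called, and with MLN8237 none is called.

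The comparison of MLN8237 with vehicle asks what this compound alone did to the family. None of the 10 genes was called by edgeR, DESeq2 or limma-voom, in a comparison that called 0.00438% of all genes, and at an unadjusted p under 0.05 the counts were 0, 1 and 0. BCL2L1 was nearly the same in both groups, at 238, 238 and 240 CPM with MLN8237, and the 95% interval of its log2 fold change ran from -0.18 to 0.21. PMAIP1 held 7.77, 7.56 and 7.57 CPM, inside the range of the vehicle libraries (log2 fold change 0.13, 95% interval -0.20 to 0.46, edgeR adjusted p = 0.701). MCL1 held 190, 187 and 177 CPM, all below the vehicle libraries, and the log2 fold change was -0.07 (95% interval -0.23 to 0.09, edgeR adjusted p = 0.668). BBC3 held 3.14, 3.80 and 3.88 CPM, all above the vehicle libraries, at a log2 fold change of 0.30 (95% interval -0.02 to 0.62, edgeR adjusted p = 0.516). These 2 of the 10 genes did not overlap between groups, as did 14% of all genes tested.

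BAX held 48.8, 50.7 and 70.6 CPM with MLN8237, the high value coming from the third library, which also had the largest share of reads in ribosomal protein genes. Its log2 fold change was 0.21 (95% interval -0.06 to 0.48, edgeR adjusted p = 0.516) with that library and 0.02 without it (adjusted p = 1, range over alternatives 0.236 to 1). BAK1 held 35.4, 34.3 and 29.3 CPM, the lowest value coming from the same library. BCL2L11 held 22.0, 21.8 and 19.2 CPM and BMF 1.84, 3.02 and 1.93 CPM, overlapping vehicle in both cases (log2 fold change -0.14 and -0.20, edgeR adjusted p = 0.520 and 0.638). BCL2, on 10 to 30 reads per library, and BIK, on 8 to 14, were too shallow to bound the change closely, with 95% intervals of -0.88 to 0.97 and -0.56 to 2.43 on the log2 scale.

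The comparison of the combination with vehicle asks what both compounds did together. It uses the same vehicle libraries as the comparisons above, so its values are given side by side with theirs and not as separate evidence. Of the 10 genes 6 rose and 0 fell, where 38.5% of all genes were called, 20.1% higher and 18.3% lower. Groups did not overlap for 7 of the 10 genes and for 54.8% of all genes. The median log2 fold change of the family was 0.39, against 0.02 over all genes tested. PMAIP1 held 17.8, 14.5 and 18.03 CPM, every library above those of vehicle, and rose by 1.26 ± 0.152 on the log2 scale (edgeR adjusted p = 5.35e-05), beside 0.97 with chaetocin alone. MCL1 held 262, 239 and 246 CPM (log2 fold change 0.37 ± 0.0737, edgeR adjusted p = 0.00178), and BCL2L1 303, 266 and 330 CPM (0.35 ± 0.0907, edgeR adjusted p = 0.00875). Neither overlapped vehicle.

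BAX held 62.6, 62.7 and 69.8 CPM with the combination (log2 fold change 0.41 ± 0.124, edgeR adjusted p = 0.0189) and BMF 4.42, 3.69 and 3.96 CPM (0.63 ± 0.196, edgeR adjusted p = 0.0223). BCL2L11 held 29.8, 29.7 and 27.6 CPM, a rise of 0.32 ± 0.0925 on the log2 scale (edgeR adjusted p = 0.0141). All 3 genes lay above every vehicle library. BAK1 held 34.2, 33.1 and 34.7 CPM, which overlapped vehicle, with a log2 fold change of 0.04 (95% interval -0.15 to 0.23, edgeR adjusted p = 0.770). On the deposited RPKM scale, which has no TMM scaling, the BAK1 libraries did not overlap vehicle, at 14.6 to 15.8 against 12.9 to 14.5 RPKM.

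Among the 10 genes, only BBC3 had a negative log2 fold change with the combination against vehicle, and it was not called. Its combination libraries held 2.09, 2.31 and 2.30 CPM, all below the 2.87 to 2.97 CPM of vehicle, and the test just missed the threshold (log2 fold change -0.39 ± 0.150, edgeR adjusted p = 0.0536). Its adjusted p was 0.0475 with DESeq2 and 0.0402 with the replicate number as a block, over a range of 0.0402 to 0.172 in 14 alternatives. BCL2 held 0.840, 0.560 and 0.612 CPM on 32 to 54 reads, overlapping vehicle through vehicle replicate 1 (log2 fold change 0.88 ± 0.404, edgeR adjusted p = 0.104). Without that library its adjusted p was 0.0411, the lowest of a range up to 0.299. BIK held 6 to 12 reads per library and its 95% interval ran from -1.06 to 1.98.

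PMAIP1, MCL1 and BCL2L1 were called in all 14 alternatives of this comparison. Without vehicle replicate 3 only these 3 genes were called. BAX then had an adjusted p of 0.0599, BCL2L11 of 0.0830 and BMF of 0.0799. BAX also missed the threshold without vehicle replicate 2 (0.0730) or combination replicate 3 (0.0698), over a range of 0.000763 to 0.0730. BMF missed it without vehicle replicate 1 (0.0927) or combination replicate 1 (0.0782), over a range of 0.00462 to 0.0927, and BCL2L11 with no filter (0.0757), over a range of 0.00141 to 0.0830.

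What MLN8237 adds to chaetocin was asked by comparing the combination with chaetocin alone, and no family gene was called. The count was 0 with edgeR, DESeq2 and limma-voom, also at an unadjusted p under 0.05, and 0% of all genes were called by edgeR, with 2677 of 22831 at an unadjusted p under 0.05. Over all genes DESeq2 called 299 and limma-voom 1, and edgeR called 573 without combination replicate 2, where the family count was still 0. PMAIP1 was the largest of the positive values, at 13.7 ± 1.61 CPM (SD, n = 3) with chaetocin and 16.8 ± 1.94 with the combination. The libraries overlapped, and the log2 fold change of 0.29 had a 95% interval of -0.03 to 0.61 (edgeR adjusted p = 0.473). BBC3 lay at 2.77 ± 0.289 and 2.23 ± 0.126 CPM without overlap (log2 fold change -0.31, 95% interval -0.63 to 0.01, edgeR adjusted p = 0.444), and BAK1 at 37.5 ± 0.371 and 34.0 ± 0.833 CPM, also without overlap (-0.14, 95% interval -0.33 to 0.05, edgeR adjusted p = 0.557). These 2 of 10 genes compare with 18.7% of all genes that did not overlap between these groups. For MCL1, BCL2L1 and BCL2L11 the 95% intervals of the log2 fold change were -0.19 to 0.13, -0.17 to 0.22 and -0.23 to 0.17. Changes within those intervals remain compatible with these data.

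**Figure D4:**
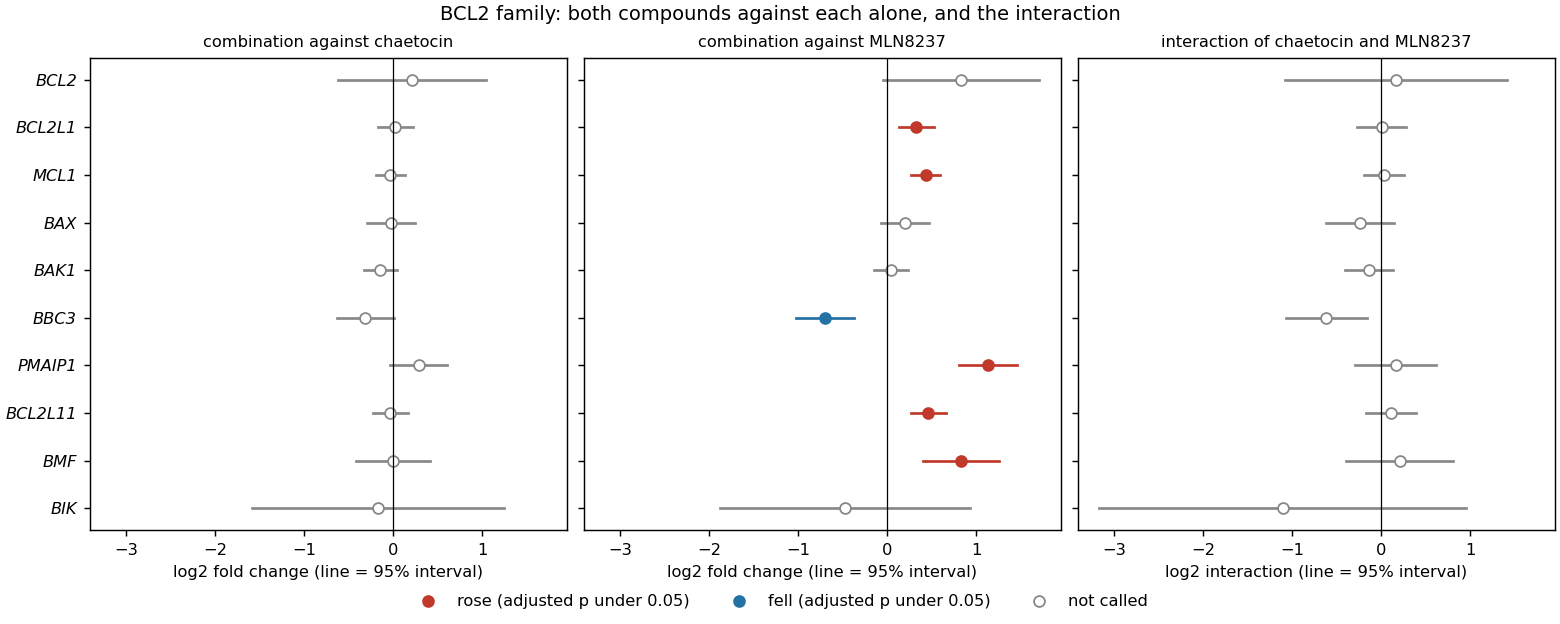
Log2 fold change of the combination against chaetocin (left) and against MLN8237 (middle), and the log2 interaction (right), with 95% intervals and filled points where the adjusted p was under 0.05. No gene is called on the left or on the right, and in the middle 5 genes are higher and BBC3 is lower.

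What chaetocin adds to MLN8237 was asked by comparing the combination with MLN8237 alone. Here 5 family genes rose and 1 fell, where 45.9% of all genes were called, 23.3% higher and 22.7% lower. The same 6 genes did not overlap between the groups, as did 51.3% of all genes. PMAIP1 rose by 1.14 ± 0.152 on the log2 scale (edgeR adjusted p = 0.000102), BMF by 0.83 ± 0.198 (adjusted p = 0.00444), BCL2L11 by 0.46 ± 0.0927 (adjusted p = 0.00151), MCL1 by 0.43 ± 0.0737 (adjusted p = 0.000514) and BCL2L1 by 0.33 ± 0.0906 (adjusted p = 0.0102). BBC3 fell from 3.61 ± 0.406 to 2.23 ± 0.126 CPM, with every combination library below every MLN8237 library. Its log2 fold change was -0.69 ± 0.149 (edgeR adjusted p = 0.00239), and it was called in all 14 alternatives, with an adjusted p of at most 0.0257. Among the 10 genes it was the 1 called decrease in the 6 comparisons. Of the further family members described below, 12 were tested, and 2 rose and 5 fell in this comparison.

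BAX was not called against MLN8237 (log2 fold change 0.20, edgeR adjusted p = 0.207), with 70.6 CPM in MLN8237 replicate 3 above all combination libraries. Without that library its log2 fold change was 0.37 (adjusted p = 0.00280, range over alternatives 0.00280 to 0.576). BCL2 was likewise not called (0.83 ± 0.405, adjusted p = 0.110) and passed without MLN8237 replicate 2, which held 30 of its reads against 16 and 10 (adjusted p = 0.0207, range 0.0207 to 0.309). BCL2L1 missed the threshold when only these groups were fitted (adjusted p = 0.0585, range 0.000957 to 0.0585). BAK1, at 33.02 ± 3.23 CPM with MLN8237 and 34.0 ± 0.833 with the combination, was not called (adjusted p = 0.721), and neither was BIK (adjusted p = 0.576).

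The interaction sets the log2 change under the combination against the added log2 changes under the single compounds, and asks whether the compounds acted other than additively on the log scale. It was called for 0 of the 10 genes and 0% of all genes by edgeR, and for 0 family genes by DESeq2 and limma-voom. Over all genes 3108 had an unadjusted p under 0.05 in edgeR, and DESeq2 called 15 and limma-voom 0. At an unadjusted p under 0.05 each tool gave 1 gene, BBC3 in edgeR, which lay at -0.61 ± 0.210 (95% interval -1.07 to -0.16, edgeR adjusted p = 0.362, range over 19 alternatives 0.180 to 0.713). BBC3 was higher with MLN8237 alone by 0.30, lower with chaetocin alone by a log2 fold change of -0.08 and lower with both by -0.39. For PMAIP1 the interaction was 0.16 (95% interval -0.30 to 0.62) and for MCL1 0.04 (-0.19 to 0.26). Departures from additivity within those intervals remain compatible with these data.

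Within the 10 genes, the composition shifted toward PMAIP1 in libraries with chaetocin, given here as a description of the deposited RPKM. Further family members, among them BCL2L2 and BOK, are not in these sums. The 5 BH3-only genes made up 5.52%, 5.43% and 4.44% of the summed RPKM of the 10 genes in the 3 vehicle libraries. After chaetocin they made up 5.92%, 6.37% and 5.95%. The same share was 5.21%, 5.46% and 4.94% with MLN8237 and 6.81%, 6.63% and 6.47% with the combination. All 6 libraries with chaetocin exceeded all 6 without it. The pro-survival share lay at 73.8 ± 1.23% in vehicle, 73.3 ± 0.599% with chaetocin, 72.1 ± 1.56% with MLN8237 and 73.6 ± 0.754% with the combination. PMAIP1 was 38.2 ± 3.84% of the BH3-only RPKM in vehicle, 49.5 ± 3.03% with chaetocin, 40.9 ± 1.83% with MLN8237 and 55.6 ± 3.10% with the combination.

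Set against the gene of its main partner, PMAIP1 stood at 8.18%, 7.04% and 5.28% of MCL1 RPKM across the vehicle libraries, against 8.74%, 11.4% and 10.5% after chaetocin. The share was 7.72%, 7.62% and 8.09% with MLN8237 and 12.8%, 11.5% and 13.8% with the combination. The combination libraries all exceeded the chaetocin libraries, though by as little as 11.5% against 11.4%, and PMAIP1 itself overlapped between these groups. Vehicle replicate 3 held the lowest share of the 12 libraries.

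**Figure D5:**
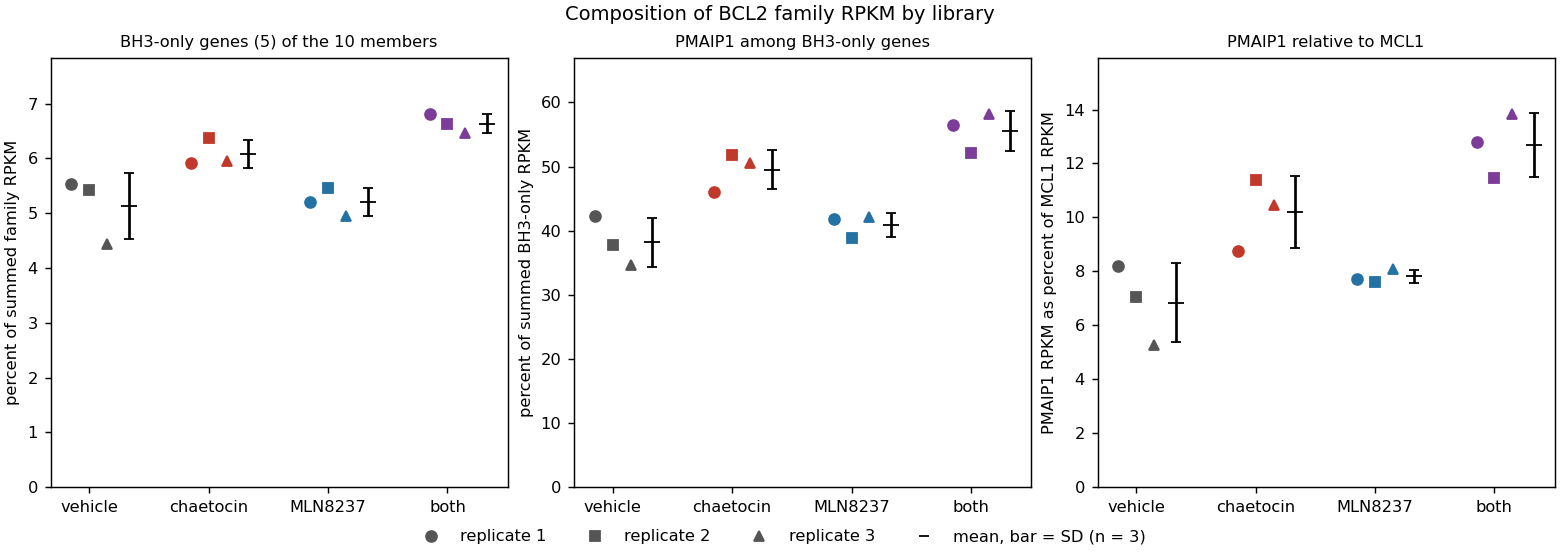
Share of the 5 BH3-only genes in the summed RPKM of the 10 genes (left), of PMAIP1 in the RPKM of those 5 (middle) and PMAIP1 RPKM as a percent of MCL1 RPKM (right). Libraries are shown by group, with a point per library and the mean with SD (n = 3) in black. In all 3 panels the libraries with chaetocin lie above those without it.

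Genes whose levels followed each member most closely over the 12 libraries were found by the root mean square difference of log2 CPM, each gene being centred on its vehicle mean, among the 12593 or 12594 other tested genes with a mean of at least 5 CPM. MCL1 lay nearest to PARD3, TES and GBE1 (0.0461, 0.0545 and 0.0557 log2 units) and BCL2L1 to RAB40C, INPP5K and POR (0.0443, 0.0464 and 0.0480). BAX lay nearest to RABGGTB (0.0462), BAK1 to RGS17 (0.0475), BCL2L11 to FBXO45 (0.0576) and BBC3 to C9orf142 (0.0839). PMAIP1 had no such close neighbour, the nearest being XKR9, RP11-564D11.3 and HECA at 0.135, 0.150 and 0.151, and BMF lay at 0.172 from ZNF788. For BCL2 and BIK the nearest genes lay at 0.316 and 0.631, distances that carry the counting error of their few reads. The distances are not scaled for read depth or for spread between libraries. PMAIP1 held 305 to 398 reads per vehicle library and BMF 111 to 166. The part of depth and spread in their distances was not tested. No other member was among the 3 nearest of any member.

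The rest of the BCL2 family was mixed. Of 13 further members 12 were tested, of which 2 rose and 1 fell with chaetocin and 3 rose and 2 fell with the combination, with median log2 fold changes of 0.06 and 0.24. These counts are near the 24.5% and 38.5% of all genes called in the same comparisons. BCL2L2, the pro-survival gene of BCL-w, rose from 58.8 ± 1.59 to 77.2 ± 4.44 CPM with chaetocin and stood at 74.7 ± 4.19 with the combination (edgeR adjusted p = 0.00304 and 0.00379). BNIP3, whose product acts in mitophagy, rose from 60.3 ± 3.04 to 76.7 ± 3.59 CPM with chaetocin (adjusted p = 0.0131), while its relative BNIP3L fell from 55.1 ± 2.37 to 46.2 ± 0.548 CPM, and to 38.5 ± 2.98 with the combination (adjusted p = 0.0313 and 0.000276). BCL2L13 rose and the BAX-like gene BOK fell with the combination, from 63.8 ± 1.52 to 79.0 ± 4.64 and from 47.9 ± 3.31 to 37.5 ± 3.01 CPM (adjusted p = 0.00689 and 0.0114). With MLN8237 none of the 12 was called.

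Downstream of the mitochondrion, genes of cytochrome c release and the caspases gave 2 higher and 2 lower of 16 with chaetocin, and 5 and 4 with the combination, against 24.5% and 38.5% of all genes called either way. VDAC1, an outer membrane channel, fell from 520 ± 12.9 to 396 ± 8.17 CPM with chaetocin and to 356 ± 29.9 with the combination (edgeR adjusted p = 0.00450 and 0.000297). CASP9, the initiator caspase of this route, rose from 7.15 ± 0.427 to 9.61 ± 0.502 CPM with chaetocin (adjusted p = 0.0332). APAF1, the scaffold on which CASP9 is activated, rose from 23.5 ± 0.960 to 30.6 ± 2.64 CPM with the combination, and the protease gene HTRA2 rose from 36.01 ± 1.71 to 45.4 ± 3.92 CPM with the combination (adjusted p = 0.00678 and 0.00817). Also called with the combination, and named after their values were seen, were CASP9 and CASP10 among the higher genes and VDAC2 and ENDOG among the lower.

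Among 8 caspase inhibitor genes 2 rose and 2 fell with chaetocin and with the combination, where 24.5% and 38.5% of all genes were called. BIRC3, which encodes cIAP2, fell from 284 ± 10.8 to 132 ± 8.90 CPM with chaetocin and to 119 ± 18.9 with the combination (edgeR adjusted p = 8.32e-05 and 1.69e-05), and BIRC2, which encodes cIAP1, from 225 ± 6.06 to 151 ± 9.27 and 153 ± 8.82 CPM (adjusted p = 0.000332 and 0.000192). XIAP, which blocks caspases directly, rose from 113 ± 9.89 to 142 ± 6.68 and 148 ± 4.34 CPM (adjusted p = 0.0148 and 0.00300), and BIRC7 from 2.06 ± 0.121 to 4.85 ± 1.04 and 3.94 ± 0.588 CPM (adjusted p = 0.00399 and 0.0116). None of the 8, and none of the 16 genes above, was called with MLN8237 by edgeR.

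Of 8 genes for ubiquitin enzymes and related proteins listed as acting on BCL2 family proteins, 0 rose and 1 fell with chaetocin, and 2 rose and 1 fell with the combination. The shares of all genes called were 24.5% and 38.5%. DESI1 was the gene that fell, from 60.8 ± 3.47 to 41.7 ± 0.826 and 38.7 ± 4.34 CPM (edgeR adjusted p = 0.000979 and 0.000145). Whether the DESI1 product acts on BCL2 family proteins was not tested. FBXW7, the MCL1 ubiquitin ligase subunit, rose from 12.7 ± 1.77 to 16.4 ± 1.31 CPM with the combination (adjusted p = 0.0319), and PARK2 from 0.104 ± 0.0550 to 0.584 ± 0.173 CPM (adjusted p = 0.00317).

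Of 16 transcription factor genes listed for action on the family, 6 rose and 1 fell with chaetocin, and 5 rose and 1 fell with the combination, with median log2 fold changes of 0.22 and 0.29, beside 24.5% and 38.5% of all genes called. The stress factor gene ATF3 rose from 5.55 ± 0.131 CPM to 15.8 ± 1.45 with chaetocin and 22.5 ± 5.48 with the combination (edgeR adjusted p = 5.11e-05 and 3.39e-06). EGR1 rose from 2.93 ± 0.899 to 12.7 ± 1.39 and 33.7 ± 9.39 CPM (adjusted p = 5.21e-05 and 1.41e-06), and JUN from 86.9 ± 6.88 to 131 ± 9.95 and 154 ± 19.5 CPM (adjusted p = 0.00137 and 7.15e-05). STAT3, named after its values were seen, was the gene that fell, from 298 ± 22.1 to 190 ± 30.8 and 179 ± 31.0 CPM (adjusted p = 0.0111 and 0.00315). FOXO4 rose from 0.420 ± 0.169 to 1.68 ± 0.524 CPM with the combination (adjusted p = 0.000758), and E2F1 from 93.7 ± 2.40 to 140 ± 1.74 CPM with chaetocin (adjusted p = 0.00353). BBC3, PMAIP1 and BAX are textbook p53 targets, and of 18 other tested p53 target genes, with median log2 fold changes of -0.04 and 0.10, 4 rose and 4 fell with chaetocin and 5 rose and 5 fell with the combination, again beside 24.5% and 38.5% of all genes. PERP fell from 1113 ± 49.7 to 432 ± 21.4 CPM with chaetocin and TP53I3 from 35.8 ± 2.84 to 18.8 ± 0.877 CPM, while AEN rose from 56.5 ± 2.31 to 81.4 ± 2.61 CPM and MDM2 from 99.4 ± 4.90 to 139 ± 3.07 CPM (adjusted p = 3.56e-06, 6.00e-05, 0.00111 and 0.00129). TP53INP1 rose from 7.43 ± 1.26 to 15.97 ± 1.43 CPM with chaetocin and 21.97 ± 4.41 with the combination (adjusted p = 0.00220 and 0.000114). The lists were chosen with earlier results of these data known, so their counts describe the pathway and support no result of the family.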

How the data were processed

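RNA sequencing of PANC-1 cells gave 12 libraries, 3 per group, and the authors deposited 1 gene table. Per the file headers its columns give Ensembl identifiers, positions, a gene length and, for each library, a read count and an RPKM. The submitters' processing notes list CASAVA 1.9, TopHat 12.0.6 (version as listed), HTSeq and hg19 with no role for any. Use of strand in counting is not given there, per the labels or in the table. The deposited RPKM served to compare levels between genes, to form shares and, for BAK1, to set the combination beside vehicle without TMM scaling.

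Deposited counts were fitted with edgeR 4.0.16 in R 4.3.3: default expression filter by group (22831 of 57773 genes kept), TMM scaling, 4 group means over all 12 libraries, robust quasi-likelihood F test, and Benjamini-Hochberg adjustment over all genes tested, with calls at an adjusted p under 0.05. CPM values are TMM-scaled and given as mean ± SD, and intervals are at 95%. Total counts per library were 49439795 to 63747510. Precision depends on read counts and on the spread between libraries. BCL2L1 held 10939 reads or more in every library, yet its SE for chaetocin against vehicle was 0.0906. Precision is low for BCL2 and BIK, which held few reads.

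The members and gene lists were chosen with earlier results of these data known. All 10 members are named, with up to 4 called genes of smallest p per other list and comparison with vehicle, and the 3 genes of most like pattern per member, of which not every one is printed. Alternatives were RLE size factors, no filter (at least 1 count), a minimum of 1 CPM in 6 or more libraries, limma-voom (limma 3.58.1), DESeq2 1.42.0, a replicate block, the groups compared alone, each library left out, and the 3 treated libraries numbered 3 left out. Of 15 markers of other cell types 14 were found by symbol, and of 20 other p53 target genes 19. Some genes counted in the lists are not reported here by name.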

Additional observations from a re-analysis of the deposited data

How the results depend on the processing

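The number of family genes called was within 1.5 times its value for each comparison under every setting except the omission of single libraries. With each library left out in turn it ran from 2 to 5 for chaetocin against vehicle (6 with all libraries), where it was 2 without chaetocin replicate 2 and 3 without chaetocin replicate 3 or vehicle replicate 3. It ran from 3 to 6 for the combination against vehicle, where it was 3 without vehicle replicate 3, from 6 to 7 for the combination against MLN8237, and stayed at 0 for the other comparisons. These omissions also leave fewer libraries to estimate the spread. The labels do not say that replicate numbers pair the libraries. Of 18 same-numbered pairs across groups, 9 had a correlation of deviations above 0.1 (-0.153 to 0.462), and other pairs reached at most 0.267. In none of the comparisons made did all 3 pairs exceed 0.1, while between chaetocin and MLN8237 they did (0.119 to 0.441), and the treated libraries numbered 3 correlated at 0.436 to 0.462. A library correlated best with its own number in 20 of 36 cases, a hint of shared numbers from the data and not from the design. With the replicate number as a block the counts were 6 for chaetocin, 7 for the combination against vehicle, where BBC3 was added, 6 for the combination against MLN8237, and 0 for the others.

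No called gene changed sign under any setting tried. Some values without a call did, and not all of them lay near 0. With all libraries BIK stood at 0.63 with chaetocin and at 0.46 with the combination against vehicle, and the BCL2 interaction at 0.17. The cause of these sign changes was not tested. With MLN8237 the log2 fold change of BAK1 was 0.00465 with RLE size factors, 0.00536 with DESeq2 and 0.0747 without the treated libraries numbered 3, and without those libraries it was -0.0396 for the combination against MLN8237. For the combination against chaetocin, BCL2L1 was at -0.00315 with no filter and -0.00425 without the libraries numbered 3, BMF at -0.0227 with no filter and BIK at 0.0815 with limma-voom. With the filter of 1 CPM in 6 libraries MCL1, BAX and BCL2L11 were at 0.00184, 0.00825 and 0.00130. The interaction of BCL2L1 was -0.0248 with no filter and -0.0192 without the libraries numbered 3. With single libraries left out, values with MLN8237 ran from -0.0625 to 0.0729 for BAK1, -0.505 to 0.478 for BCL2, -0.00190 to 0.0362 for BCL2L1 and -0.0299 to 0.267 for PMAIP1. BIK ran from -0.0175 to 1.73 with chaetocin, and with the combination against vehicle BIK ran from -0.00563 to 1.55 and BAK1 from -0.0201 to 0.0543. For the combination against chaetocin the ranges were -0.0789 to 0.00417 (BAX), -0.0521 to 0.0956 (BCL2L1), -0.0743 to 0.00418 (BCL2L11), -0.0686 to 0.0798 (BMF) and -0.611 to 0.464 (BIK), and against MLN8237 -0.0485 to 0.0869 (BAK1). For the interaction they were -0.271 to 0.721 (BCL2), -0.0704 to 0.0799 (BCL2L1) and -0.00832 to 0.0620 (MCL1). Depth limits BCL2 and BIK, with at most 54 and 18 reads per library.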
